A study of Citrullus lanatus with 36 samples.

Results

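MADS-box transcription factors were taken from the flesh transcriptome of melon fruits as the rows whose deposited protein description contains "MADS-box" or "agamous-like" in any case. Of the 25121 genes named in the table, 41 met this rule. Libraries came from fruits of 3 genotypes, WT, *CmNOR/Cmnor* and *Cmnor*, whose flesh was sampled on the plant 33, 36 or 39 days after pollination (DAP) or once stored for 6 d, which makes 12 groups of 3 replicates. WT is the oriental melon cultivar BY9H with both copies of *CmNOR* intact. *Cmnor* is a line of that background, made by CRISPR/Cas9, with a deletion in the NAC domain on both copies, and *CmNOR/Cmnor* is the F1 of *Cmnor* crossed with BY9H, with 1 mutated copy. By the study's methods fruits for storage were harvested at 36 DAP, so that storage is compared with that stage, and a single mutant line stands behind both mutant groups. The labels give Citrullus lanatus as the organism, whereas the gene identifiers, the protein descriptions and the study are of melon. The labels do not tie a library to a separate fruit, so that p-values measure the spread between libraries.

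MADS-box proteins are transcription factors that bind DNA through a conserved N-terminal domain and act as dimers and larger complexes. Type II members (MIKC) include the floral organ identity proteins AGAMOUS and SEPALLATA and the flowering-time proteins SOC1 and SVP of Arabidopsis, while type I members (M type) are known mostly from the female gametophyte, the endosperm and the embryo. In tomato the SEPALLATA-clade protein RIN and the AGAMOUS-clade protein TAGL1 are needed for ripening, and NOR is a NAC transcription factor that acts beside them.

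The unit is FPKM, fragments counted for a transcript relative to its length and to the mapped fragments of the library. Differences were tested with limma on log2(FPKM + 1) over all 36 libraries, and a gene was called higher or lower at a Benjamini-Hochberg adjusted p under 0.05 over the 24901 genes tested. Log2 fold changes are on this scale, on which low genes appear to change less than they do. The libraries held an estimated 17.7 to 36.9 M fragments (median 30.5), so that 1 fragment in a transcript of 1 kb was worth 0.0271 to 0.0564 FPKM. No source used here gives the identifier of *CmNOR*, and the labels could not be checked through the targeted gene. Phloem proteins here are 42 genes whose description names a phloem protein, filament or lectin or has a word starting with PP2. The last term may take in other proteins. None of the 42 was listed at 0 in every library, and their summed level was 595 to 984 FPKM in WT libraries, 636 to 3639 FPKM in *CmNOR/Cmnor* and 3155 to 12065 FPKM in *Cmnor*. At 33 DAP the second replicate of *Cmnor* (7789 FPKM, against 5648 and 5229) and that of *CmNOR/Cmnor* (3639 FPKM, against 2367 and 1827) stood above the others of their groups. At 33 DAP the 13 seed markers (storage proteins and oleosins) summed to 45.8 to 48.2 FPKM in WT and 78.6 to 84.4 in *Cmnor*. At 36 DAP the sums were 77.0 to 89.0 and 74.9 to 86.6 FPKM. At 39 DAP they were 85.2 to 105 and 72.3 to 85.2 FPKM. After storage they were 65.9 to 71.7 and 103.6 to 109.6 FPKM. The 33 flesh markers (phytoene synthases, alcohol acyltransferases and expansins) summed to 184 to 283 and 162 to 238 FPKM. In WT at 33 DAP 175 of their mean sum of 277 FPKM came from MELO3C025102.2, a phytoene synthase. The study found this gene low in *Cmnor*, so that the sum does not measure flesh content. Heat shock genes summed to 9825, 5726 and 12179 FPKM in the WT libraries at 36 DAP, against 3416 to 4648 FPKM in the other WT libraries. In bulk flesh, fewer cells of a type and less RNA per cell cannot be told apart.

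Most MADS-box members were low in flesh. Of the 41, 19 reached a mean of 1 FPKM in at least 1 group and are called expressed here, and 4 of these reached 10 FPKM. The highest group mean of the other 15 expressed members was 5.40 FPKM. Each of the 22 members that never reached 1 FPKM was above 0 in at least 1 library, with highest group means of 0.0107 to 0.901 FPKM. By the transcription factor family that the table gives, 19 members were MIKC type (8 expressed), 13 were M type (6 expressed) and 9 carried no family (5 expressed). This label need not match type I, since the SEPALLATA-type gene MELO3C022315.2 is listed as M type. The highest group mean lay in a *Cmnor* group for 31 of the 41 members and for 14 of the 19 expressed ones, against 64.1% of all genes tested and 67.4% of those with a group mean of 1 FPKM. A mean of 1 FPKM was reached by 9 members in WT, 11 in *CmNOR/Cmnor* and 17 in *Cmnor*, and 8 members reached it in *Cmnor* alone. Of all genes tested 60.3, 60.8 and 68.5% reached it in these genotypes and 9.91% in *Cmnor* alone.

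The summed level of the 41 members set *Cmnor* apart at every stage. The sum was 94.7 to 317 FPKM over the WT libraries, 187 to 562 FPKM over the *CmNOR/Cmnor* libraries and 748 to 1214 FPKM over the *Cmnor* libraries. A single gene, described as floral homeotic protein AGAMOUS-like, made up 57.5 to 91.1% of the group sums.

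This gene, MELO3C002691.2, lies on chromosome 12 (21993161 to 21997694, minus strand, Melon DHL92 v3.6.1) and matches the tobacco protein AGAMOUS, a regulator of stamen and carpel identity. At 33 DAP its values were 269.7, 268 and 252 FPKM in WT, 411, 511 and 349 FPKM in *CmNOR/Cmnor*, and 790.0, 993 and 832 in *Cmnor* libraries. The 3 genotypes did not overlap, and their order followed the number of mutated copies. The same order without overlap held at 36 DAP, with 179, 71.8 and 127 FPKM in WT, 267, 245 and 276 FPKM in *CmNOR/Cmnor*, and 725, 834 and 838 in *Cmnor* libraries.

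At 39 DAP the heterozygote overlapped WT. MELO3C002691.2 was then at 156, 174 and 145 FPKM in WT, 170.0, 157 and 139 FPKM in *CmNOR/Cmnor*, and 954, 891 and 886 in *Cmnor* libraries. After 6 d of storage the values were 156, 173 and 181 FPKM in WT, 274, 228 and 227 FPKM in *CmNOR/Cmnor*, and 760.3, 773 and 619 in *Cmnor* libraries. The *Cmnor* libraries lay above all others at both times.

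The ratio of the *Cmnor* mean to the WT mean of MELO3C002691.2 was 3.31 ± 0.425, 6.34 ± 2.75, 5.76 ± 0.587 and 4.22 ± 0.593 at 33, 36 and 39 DAP and after storage (SD from both groups, n = 3). On the log2 scale the differences were 1.72, 2.75, 2.52 and 2.07 (standard error 0.19, adjusted p = 5.16e-09, 3.45e-13, 2.15e-12 and 1.3e-10). Against WT the heterozygote was higher at 33 DAP (log2 fold change 0.67, adjusted p = 0.0106) and at 36 DAP (1.15, adjusted p = 6.45e-05), and not called at 39 DAP (-0.03, adjusted p = 1) or after storage (0.51, adjusted p = 0.0853). The call at 33 DAP was lost without the second *CmNOR/Cmnor* replicate (0.52, adjusted p = 0.0805), and that at 36 DAP had an adjusted p of 0.0544 when only the libraries compared were fitted.

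Between 33 and 39 DAP MELO3C002691.2 fell by 0.74 on the log2 scale in WT (adjusted p = 0.00237) and fell by 1.43 in *CmNOR/Cmnor* (adjusted p = 4.65e-07), with a difference of 0.07 in *Cmnor* (adjusted p = 0.875). The change in *Cmnor* differed from that in WT by 0.80 (adjusted p = 0.0147). Its rise during storage in WT (0.52, adjusted p = 0.0284) was 0.17 (adjusted p = 0.458) without the second WT library at 36 DAP, the lowest of all, and was not called without the second or the third stored library either (0.51 and 0.47) or with only the libraries compared (adjusted p = 0.238).

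**Figure D1:**
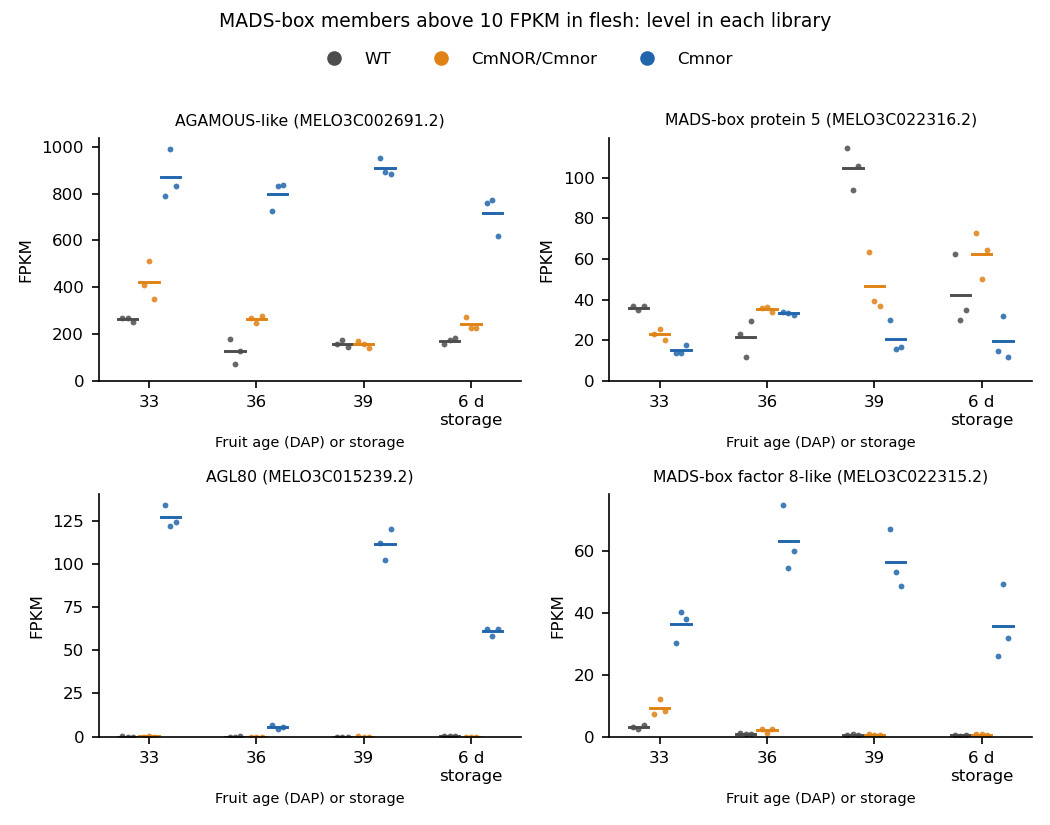
FPKM (linear axes from 0) of the 4 members with a group mean above 10 FPKM, by stage. Each point is a library and each bar the mean of 3 libraries, for WT, CmNOR/Cmnor and Cmnor. AGAMOUS-like, AGL80 and the factor 8-like gene are highest in Cmnor at every stage, and MADS-box protein 5 is highest in WT at 39 DAP, at 94.1 to 115 FPKM.

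A pair of SEPALLATA-type genes that neighbour each other on chromosome 11 differed from WT in opposite directions in *Cmnor* at 3 of the 4 stages. SEPALLATA proteins bridge other MADS-box proteins into complexes. MELO3C022315.2 (32738860 to 32756303, minus strand), described as MADS-box transcription factor 8-like after a rice protein, was higher in *Cmnor* at every stage. MELO3C022316.2 (32762765 to 32769297, minus strand), described as MADS-box protein 5 and matching grape SEPALLATA homolog 3, begins 6461 bp away and was lower in *Cmnor* at 3 of the 4 stages.

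In WT at 33 DAP MELO3C022315.2 had 3.24, 2.61 and 3.86 FPKM. It had 7.30, 12.1 and 8.40 FPKM in *CmNOR/Cmnor*, and 30.4, 40.5 and 38.1 in *Cmnor* libraries. At 36 DAP it was at 1.05, 0.829 and 0.924 FPKM in WT, 2.39, 1.31 and 2.45 FPKM in *CmNOR/Cmnor*, and 74.9, 54.5 and 60.2 in *Cmnor* libraries. The genotypes were in the order of mutated copies with no overlap at both stages.

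At 39 DAP MELO3C022315.2 was at 0.576, 0.790 and 0.559 FPKM in WT, 0.864, 0.512 and 0.661 FPKM in *CmNOR/Cmnor*, and 67.0, 53.1 and 48.9 in *Cmnor* libraries. After storage it was at 0.568, 0.193 and 0.475 FPKM in WT, 0.711, 0.740 and 0.540 FPKM in *CmNOR/Cmnor*, and 26.2, 49.4 and 32.0 in *Cmnor* libraries. WT and *CmNOR/Cmnor* overlapped at both times, and *Cmnor* lay far above both.

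The ratio of the *Cmnor* to the WT mean was 11.2 ± 2.71 at 33 DAP, 67.7 ± 13.8 at 36 DAP, 87.8 ± 23.02 at 39 DAP and 87.0 ± 50.7 after storage for MELO3C022315.2. Its log2 fold changes were 3.14, 5.04, 5.12 and 4.67 (standard error 0.20, adjusted p = 4.59e-14, 1.44e-18, 1.06e-18 and 6.27e-18). The heterozygote was higher than WT by 1.26 at 33 DAP (adjusted p = 2.03e-05) and by 0.64 at 36 DAP (adjusted p = 0.0247). The latter call was lost without any 1 of 4 libraries (the second or the third of WT, the first or the third of *CmNOR/Cmnor*), with values of 0.54 to 0.63, and when only the libraries compared were fitted (adjusted p = 0.0665).

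From 33 to 39 DAP MELO3C022315.2 fell by 1.36 in WT (adjusted p = 2.39e-06), fell by 2.59 in *CmNOR/Cmnor* (adjusted p = 2.27e-11) and rose by 0.62 in *Cmnor* (adjusted p = 0.0119). The rise was not called without the first *Cmnor* library of either stage (0.50 and 0.49, adjusted p = 0.0695 and 0.0739) or with log2(FPKM + 0.1) (0.63, adjusted p = 0.0711). The change over this time differed from that in WT by 1.98 in *Cmnor* (adjusted p = 1.37e-06) and by -1.23 in *CmNOR/Cmnor* (adjusted p = 0.00173). The gene overlaps a member on the other strand, MELO3C034951.2, by 13206 bp, and whether the counting used strand is not stated. The overlapping member had a highest group mean of 0.120 FPKM.

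MADS-box protein 5 (MELO3C022316.2) was at 36.7, 34.8 and 36.7 FPKM in WT at 33 DAP, 23.3, 25.7 and 20.3 FPKM in *CmNOR/Cmnor*, and 13.7, 13.9 and 17.7 in *Cmnor* libraries. At 39 DAP it was at 115, 94.1 and 106 FPKM in WT, 63.2, 39.3 and 36.9 FPKM in *CmNOR/Cmnor*, and 30.0, 15.7 and 16.8 in *Cmnor* libraries. At both stages the genotypes did not overlap, with the heterozygote between the homozygotes.

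At 36 DAP the order was another, with 23.03, 11.5 and 29.7 FPKM in WT, 35.7, 36.2 and 33.7 FPKM in *CmNOR/Cmnor*, and 33.7, 33.5 and 32.6 in *Cmnor* libraries. After storage MELO3C022316.2 was at 62.7, 30.1 and 34.7 FPKM in WT, 72.6, 50.4 and 64.4 FPKM in *CmNOR/Cmnor*, and 14.5, 31.8 and 11.9 in *Cmnor* libraries. The 3 WT libraries were the lowest at 36 DAP, and *Cmnor* overlapped WT after storage through 1 library.

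In *Cmnor* MELO3C022316.2 was 2.39 ± 0.366-fold below WT at 33 DAP, 5.04 ± 1.99-fold at 39 DAP and 2.19 ± 1.52-fold after storage (SD, n = 3). On the log2 scale the differences were -1.22, -2.33 and -1.14 (standard error 0.31, adjusted p = 0.00103, 1.42e-07 and 0.00186). At 36 DAP it was called higher by 0.71 (adjusted p = 0.0462), which was 0.34 (adjusted p = 0.384) without the second WT library, not called without any 1 of the *Cmnor* libraries (0.70 to 0.72) or with only the libraries compared (adjusted p = 0.0739) and 0.19 (adjusted p = 0.647) with upper-quartile scaling. The heterozygote was below WT at 39 DAP (-1.19, adjusted p = 0.00452).

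During ripening on the plant MELO3C022316.2 rose in WT (1.51, adjusted p = 0.000232) and in *CmNOR/Cmnor* (0.94, adjusted p = 0.0148). In *Cmnor* the difference was 0.39 (adjusted p = 0.342), and the change differed from that in WT by -1.12 (adjusted p = 0.0371). With upper-quartile scaling or the same median the adjusted p of that difference was 0.0668 and 0.0803, and without any 1 of 8 libraries the difference, then -0.95 to -1.13, was not called. The rise in *CmNOR/Cmnor* was not called without its first library at 39 DAP (0.70, adjusted p = 0.11) or the third at 33 DAP (0.86, adjusted p = 0.0555). During storage the gene rose in WT (0.98, adjusted p = 0.0116, not called without the second WT library at 36 DAP, 0.61, or the first stored one, 0.67) and fell in *Cmnor* (-0.87, adjusted p = 0.0203, not called without the first or the third stored library, -0.74 and -0.60). Neither storage change was called when only the libraries compared were fitted (adjusted p = 0.0985 and 0.0604). The storage change in *Cmnor* differed from that in WT by -1.85 (adjusted p = 0.000849).

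Among the members listed as M type, which include factor 8-like, AGL80 (MELO3C015239.2, chromosome 2, 184547 to 185719, plus strand) was near 0 in WT and *CmNOR/Cmnor* and above 100 FPKM in *Cmnor* at 33 and 39 DAP. In Arabidopsis AGL80 is needed for the central cell of the female gametophyte. In WT the FPKM values were 0.118, 0.0698 and 0.0358 at 33 DAP, 0.0795, 0 and 0.115 at 36 DAP, 0.0291, 0.0599 and 0.102 at 39 DAP and 0.138, 0.140 and 0.115 after storage. *CmNOR/Cmnor* libraries held 0 to 0.249 FPKM. These values stand for at most 4.5 fragments in a WT library and 9 in a *CmNOR/Cmnor* library, so that levels in both genotypes were at the limit of the depth.

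In *Cmnor* the libraries of 33 DAP held 134, 122 and 125 FPKM of AGL80 and those of 39 DAP 112, 102 and 120.0 FPKM. At 36 DAP, between those stages, it was at 6.80, 4.17 and 5.59 FPKM. After storage it was at 62.6, 58.2 and 62.5 FPKM. The *Cmnor* libraries exceeded those of the other genotypes at each stage, and 36 DAP stood far below the rest.

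The log2 fold changes of MELO3C015239.2 against WT were 6.89, 2.60, 6.72 and 5.78 in *Cmnor* (standard error 0.10, adjusted p = 4.15e-27, 2.15e-18, 8.92e-27 and 1e-25). No ratio is given because the WT means rest on a few fragments. *CmNOR/Cmnor* differed from WT by -0.10 to 0.05 and was not called. From 36 DAP to 6 d of storage it rose by 3.27 in *Cmnor* (adjusted p = 8.29e-20), which differed from the change in WT by 3.18 (adjusted p = 5.96e-16). The phloem proteins were at their highest in *Cmnor* at 36 DAP, with sums of 10753, 11696 and 12065 FPKM, where AGL80 was lowest, and at 3155 to 3436 FPKM after storage.

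AGL62, which in Arabidopsis holds back the cellularization of the endosperm, was the description of 3 members, of which 2 were expressed. MELO3C003801.2 was at 1.14, 1.22 and 0.529 FPKM in WT and 6.40, 4.29 and 5.02 FPKM in *Cmnor* at 33 DAP. It was higher in *Cmnor* at every stage (log2 fold change 1.67, 1.77, 1.91 and 1.39, adjusted p = 3.37e-08, 1.2e-08, 2.72e-09 and 8.26e-07), with no overlap between the groups. In *CmNOR/Cmnor* it was at 1.68, 1.51 and 1.09 FPKM at 36 DAP against 0.587, 0.298 and 0.494 FPKM in WT, a difference of 0.73 (adjusted p = 0.0122) that was not called without the second WT (0.65, adjusted p = 0.0555) or the first *CmNOR/Cmnor* library (0.65, adjusted p = 0.0586). MELO3C021689.2 was higher in *Cmnor* by 0.51, 0.75, 0.50 and 0.97 (adjusted p = 0.00806, 0.000224, 0.00975 and 8.33e-06). With libraries scaled to the same median only the last of these was called. Without the third *Cmnor* library the call at 33 DAP was lost (0.37), and without the second *Cmnor* or second WT library that at 39 DAP (0.36 and 0.42). Of the 13 seed markers 8, 6, 2 and 3 were higher in *Cmnor* over the stages and 1, 1, 2 and 1 lower, and their part in the results of the M type genes was not tested.

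Of the remaining expressed M type members AGL65 (MELO3C001991.2), which acts in pollen of Arabidopsis, was higher in *Cmnor* at 33 DAP, at 1.44, 1.63 and 1.78 FPKM against 0.614, 0.809 and 0.407 FPKM in WT (0.71, adjusted p = 9.58e-05). In WT it rose from 33 to 39 DAP by 0.53 (adjusted p = 0.00406), and at 39 DAP the groups overlapped, with 1.12, 1.16 and 1.70 FPKM in WT and 1.35, 1.07 and 1.53 FPKM in *Cmnor*. AGL82 (MELO3C023738.2) was higher in *Cmnor* at 33 DAP (0.57, adjusted p = 0.00101) and 36 DAP (0.41, adjusted p = 0.0137, not called without the second library of either group, 0.33 each, or with either scaling, 0.21 and 0.18). It rose during storage in WT (0.56, adjusted p = 0.00219) and in *CmNOR/Cmnor* (0.47, adjusted p = 0.00963), to 1.17, 0.827 and 1.12 FPKM and 1.20, 1.20 and 0.706 FPKM. The latter rise was not called without the second *CmNOR/Cmnor* library at 36 DAP or the first stored one (0.41 each).

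Members named after the flowering-time regulators SOC1 and SVP were among those higher in *Cmnor*, at all stages for 1 SOC1-like expressed gene and at 33 DAP alone for the expressed SVP-like gene. SOC1, which promotes flowering in Arabidopsis, was the description of 8 members. The SOC1-like gene MELO3C006159.2 was at 3.57, 6.75 and 3.11 FPKM in *Cmnor* at 33 DAP against 0.330, 0.130 and 0.334 FPKM in WT, and 0.299, 1.10 and 0.522 FPKM in *CmNOR/Cmnor*. It was higher in *Cmnor* at all 4 stages (log2 fold change 2.06, 1.30, 1.48 and 1.30, adjusted p = 2.7e-11, 1.84e-07, 1.7e-08 and 1.88e-07) and fell from 33 to 39 DAP in *Cmnor* by 0.86 (adjusted p = 0.00019, and 0.0531 with only the libraries compared) and in *CmNOR/Cmnor* by 0.69 (adjusted p = 0.00203).

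The SVP-like gene MELO3C018601.2, after a repressor of flowering in Arabidopsis, was at 1.75, 10.1 and 1.90 FPKM in *Cmnor* at 33 DAP. It was at 0.0300, 1.15 and 0.412 FPKM in *CmNOR/Cmnor* at that stage, and listed at 0, 0 and 0.0301 FPKM in WT. In both mutant groups the second replicate was the highest, and it also had the highest sum of phloem proteins within its group. The difference between *Cmnor* and WT at 33 DAP was 2.14 (adjusted p = 5.07e-07). In *Cmnor* at 36 DAP the phloem proteins summed to more than at 33 DAP, at 10753, 11696 and 12065 FPKM. SVP-like was not called against WT at 36 DAP (0.56, adjusted p = 0.116), 39 DAP (0.61, adjusted p = 0.0841) or after storage (0.24, adjusted p = 0.541).

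Its fall from 33 to 39 DAP in *Cmnor* was -1.55 (adjusted p = 0.000138) and -0.89 without the second *Cmnor* replicate, and the difference of that change from WT was -1.53 (adjusted p = 0.00446) and -0.87 without it. Neither was called when only the libraries compared were fitted (adjusted p = 0.0758 and 0.064). The second replicates also held most of an AGL42 transcript that carries no melon gene number (chromosome 9, 21194002 to 21195021), at 0.136, 4.52 and 0.203 FPKM in *Cmnor* and 0.0367, 1.28 and 0.0719 FPKM in *CmNOR/Cmnor*. Its call at 33 DAP (0.94, adjusted p = 0.016) was lost without the second *Cmnor* replicate (0.19, adjusted p = 0.416). AGL19 (MELO3C005617.2), a promoter of flowering in Arabidopsis, was at 0.261, 1.43 and 0.317 FPKM in *Cmnor* and near 0 in WT (0.66, adjusted p = 8.1e-05, 0.36 without that replicate, and adjusted p = 0.0519 when only the libraries compared were fitted). The part of the phloem genes in these results was not tested, beyond the values without the second replicates.

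A member named after JOINTLESS was higher in *Cmnor* at 3 stages and the AGL42-like gene with a melon gene number at all 4. JOINTLESS sets the abscission zone of the tomato pedicel, and AGL42 delays the senescence and abscission of floral organs in Arabidopsis. The JOINTLESS-like gene MELO3C018055.2 was at 0.749, 2.56 and 1.98 FPKM in *Cmnor* at 33 DAP against 0, 0.241 and 0.388 FPKM in WT, and 0.176, 1.17 and 0.0691 FPKM in *CmNOR/Cmnor*. It was higher in *Cmnor* at 33, 36 and 39 DAP (1.14, 1.20 and 0.75, adjusted p = 0.000322, 0.000181 and 0.0129), the last not without the second *Cmnor* library of that stage (0.60, adjusted p = 0.0765), with either scaling (0.57 and 0.55) or with log2(FPKM + 0.1) (adjusted p = 0.0635). The AGL42-like gene MELO3C006860.2 was at 1.86, 2.04 and 2.43 FPKM in *Cmnor* at 33 DAP against 0.169, 0.166 and 0.137 FPKM in WT, and was higher at every stage (1.42, 0.92, 1.63 and 0.50, adjusted p = 7.31e-10, 1.75e-06, 4.77e-11 and 0.00289).

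A MADS-box transcription factor 23-like gene and AGL6 were also higher in *Cmnor* throughout. MELO3C030399.2 was at 2.002, 2.18 and 2.27 FPKM in *Cmnor* at 33 DAP against 0.241, 0.229 and 0.176 FPKM in WT, with log2 fold changes of 1.37, 1.53, 1.14 and 0.64 over the stages (adjusted p = 5.38e-09, 6.6e-10, 1.5e-07 and 0.000533). It fell during storage in *Cmnor* by 1.05 (adjusted p = 1.22e-06), to 0.805, 0.559 and 0.721 FPKM. It overlaps another factor 23-like member on the opposite strand, MELO3C003502.2, by 9366 bp, so that reads of the 2 genes cannot be told apart with certainty. AGL6 (MELO3C022516.2), a regulator of floral organs, was at 1.498, 1.65 and 1.26 FPKM in *Cmnor* at 33 DAP against 0.600, 0.355 and 0.696 FPKM in WT, and higher by 0.67, 0.67, 0.57 and 0.91 (adjusted p = 4.42e-05, 4.64e-05, 0.000332 and 4.93e-07).

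Few expressed members were lower in *Cmnor*. AGL15 (MELO3C024001.2), an embryo protein that delays abscission in Arabidopsis, was at 2.78, 1.43 and 3.27 FPKM in WT at 39 DAP and 0.979, 0.763 and 0.785 FPKM in *Cmnor* (-0.89, adjusted p = 0.000686). After storage it was higher in *Cmnor* (0.54, adjusted p = 0.0295), a call lost without the second or the third WT or the second *Cmnor* library (0.36 to 0.49) and with either scaling (0.22 and 0.16). The SOC1-like rows MELO3C028262.2 and MELO3C028155.2 were lower at 36 DAP (-1.80 and -0.69, adjusted p = 0.000531 and 0.0149). MELO3C028262.2 was then at 3.05, 3.76 and 3.73 FPKM in WT, 1.44, 0.610 and 4.53 FPKM in *CmNOR/Cmnor*, and 1.15, 0 and 0 in *Cmnor* libraries, and MELO3C028155.2 was at 0.277, 1.13 and 0.533 FPKM in WT and listed at 0 in *Cmnor* (-0.48 without the second WT library, adjusted p = 0.115).

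Both of these rows belong to 5 SOC1-like rows with a span of 150 bp each, among which reads may be shared, so that their levels are uncertain. MELO3C027220.2, the third of them that was expressed, was not called against WT at any stage, and the fourth, MELO3C035396.2, was higher in *Cmnor* after storage (0.52, adjusted p = 0.0106), at 0, 0.915 and 0.542 FPKM against 0 in WT, and not called without the second *Cmnor* library (0.31, adjusted p = 0.131) or with only the libraries compared (adjusted p = 0.0793). Few fragments lie behind such short rows. MELO3C028155.2 held an estimated 1, 3 and 2 fragments in the WT libraries at 36 DAP. MELO3C027220.2 held 8, 3 and 6 in *CmNOR/Cmnor* at 36 DAP, the group of its highest mean. MELO3C035396.2 held 0, 5 and 3 in *Cmnor* after storage.

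**Figure D2:**
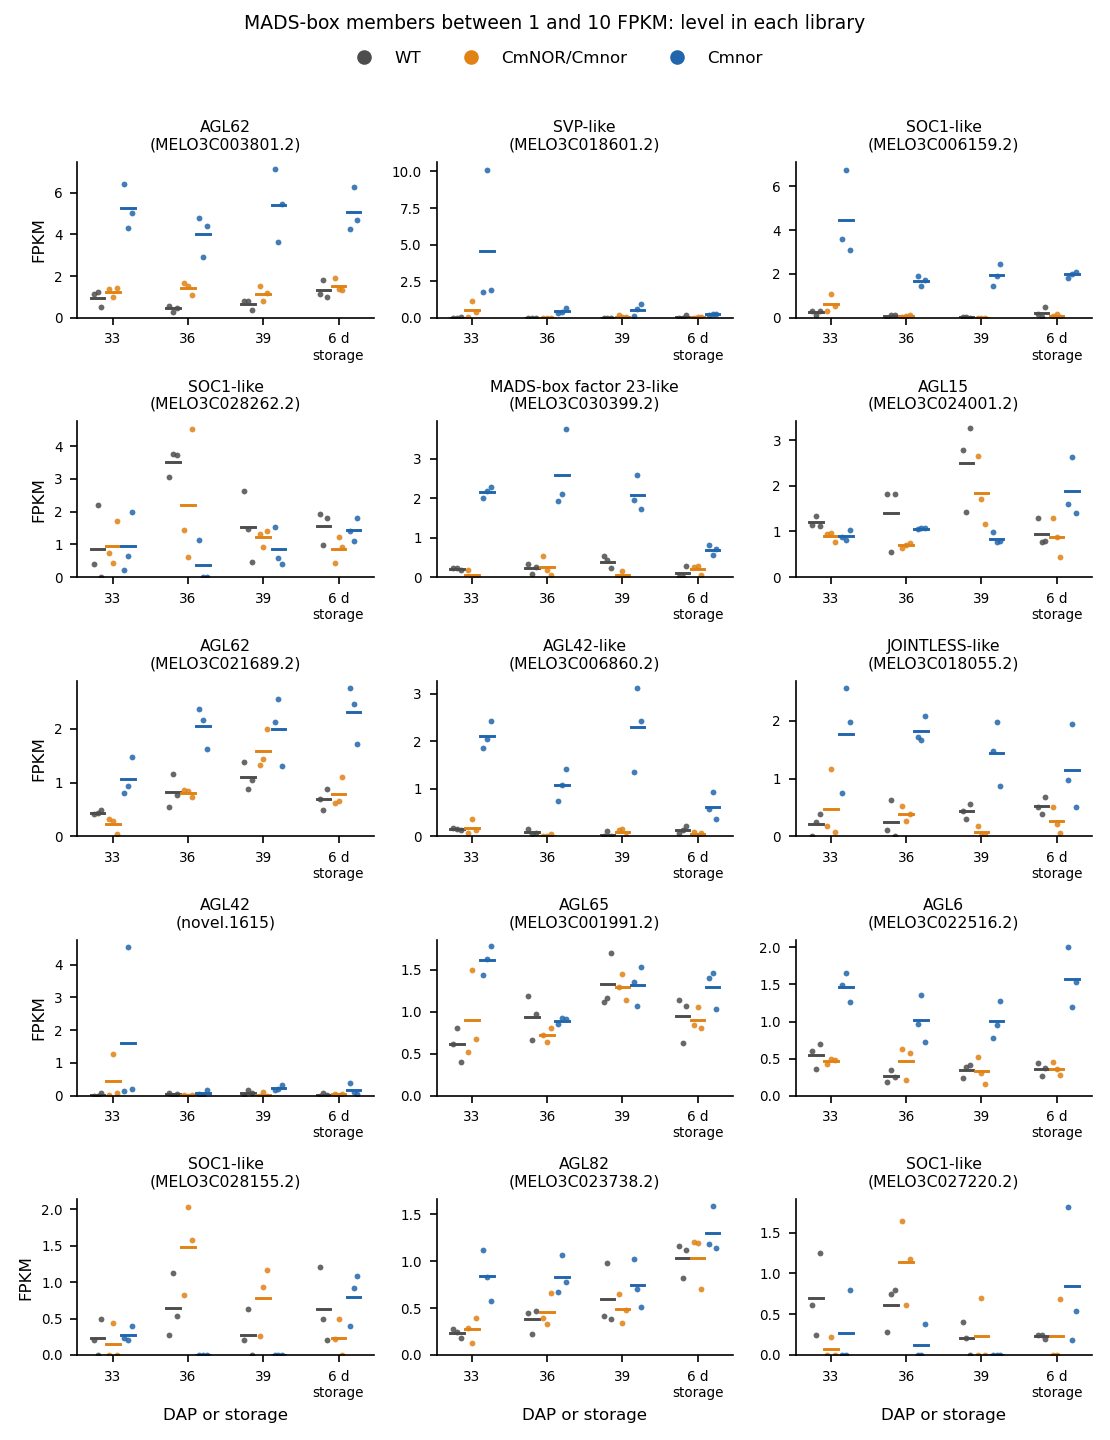
FPKM (linear axes from 0, scaled per panel) of the 15 expressed members below 10 FPKM, by stage. Each point is a library and each bar the mean of 3 libraries, for WT, CmNOR/Cmnor and Cmnor. Single high libraries at 33 DAP stand out in SVP-like (10.1 FPKM) and in the AGL42 transcript without a melon gene number (4.52 FPKM).

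Among the 22 members below 1 FPKM, 14 were called higher in *Cmnor* than in WT at 1 stage or more and 3 lower, against 38.7 and 16.4% of the 6805 genes tested that never reached that mean. FBP24 (MELO3C007017.2), after a petunia protein of the ovule and seed coat, was the only member lower in *Cmnor* at all 4 stages (-0.56, -0.43, -0.56 and -0.35, adjusted p = 0.000249, 0.00354, 0.000266 and 0.0172), the last not without the third WT library (-0.25, adjusted p = 0.123). It was at 0.472, 0.497 and 0.637 FPKM in WT at 33 DAP and listed at 0 in every *Cmnor* library but 1, which held 0.118 FPKM. In *CmNOR/Cmnor* it was at 0, 0.0555 and 0.125 FPKM at 33 DAP and listed at 0 at 36 DAP, below WT at both (-0.53 and -0.43, adjusted p = 0.00215 and 0.0166, the latter not without the second or the third WT library, -0.36 and -0.33, or with only the libraries compared, adjusted p = 0.0891).

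AGL104 (MELO3C032615.2), which acts in pollen of Arabidopsis, rose in WT to 0.411, 0.314 and 0.775 FPKM after storage. It was at 0.161, 0.132 and 0.0978 FPKM in *CmNOR/Cmnor*, and 0, 0 and 0.0967 in *Cmnor* libraries, below WT in both (-0.40 and -0.53, adjusted p = 0.000424 and 2.81e-07). When only the libraries compared were fitted, the difference of *CmNOR/Cmnor* (adjusted p = 0.115) and the rise in WT (0.39, adjusted p = 0.0517) were not called. Conversely AGL29 (MELO3C002723.2) was listed at 0 in all 12 WT libraries and above 0 in all 12 *Cmnor* libraries, at 0.729, 0.121 and 0.852 FPKM at 33 DAP and 0.754, 0.473 and 1.09 FPKM after storage (log2 fold changes 0.61 and 0.81). AGL12 (MELO3C022205.2), chosen for mention after its values were seen as was AGL29, was in *Cmnor* at 0.102, 0.186 and 0.175 FPKM at the first stage and 0.609, 0.387 and 0.834 FPKM at the second, and listed at 0 in *Cmnor* at 39 DAP and after storage and in all WT libraries.

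Counted over the 41 members, *Cmnor* exceeded WT in 23 and fell below it in 2 at 33 DAP. Over all genes tested, 48.1% were called higher and 15.5% lower in that comparison. At 36 DAP the members were 20 higher and 4 lower (46.3 and 16.5% of all genes), at 39 DAP 14 and 4 (39.6 and 22.9%) and after storage 16 and 4 (44.5 and 17.4%). The shares of members called higher were near those of all genes, and the shares called lower were smaller at each stage. However, 22 of the 41 members never reached a group mean of 1 FPKM. Among all genes tested that never reached it, 16.4% were called lower at 1 stage or more, against 39.1% of those that did. The part of low levels in the smaller shares was not tested. Without the second replicates of both mutant groups at 33 DAP, 20 members were higher and 2 lower at that stage. The phloem proteins, 42 genes, were 26, 27, 24 and 27 higher and 6, 5, 5 and 6 lower over the stages, and their part in the members' results was not tested. Called members with a log2 fold change of 1 or beyond, up or down, were 10, 8, 8 and 6, against 29.1, 29.7, 28.4 and 28.2% of all genes. Either way called were 25, 24, 18 and 20 members and 63.5, 62.8, 62.5 and 61.8% of all genes.

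The 19 expressed members were called higher in 14, 12, 10 and 10 cases and lower in 1, 2, 2 and 1, with median log2 fold changes of 0.94, 0.71, 0.57 and 0.50. The medians over the 15407 genes with a mean of 1 FPKM over all 36 libraries were 0.52, 0.49, 0.31 and 0.45. Of those genes 59.1, 57.8, 50.1 and 56.4% were called higher and 21.8, 23.5, 29.5 and 21.9% lower. Expressed members were chosen by a level in any group, so that a member high in *Cmnor* alone enters the list through that level. The 15407 genes passed an unlike filter, on the mean over all libraries, and are not a matched background. Scaling the libraries to the same median moved the split of all genes to 32.1% higher and 27.4% lower at 33 DAP, 31.0 and 28.6% at 36 DAP, 31.3 and 30.2% at 39 DAP and 28.6 and 31.4% after storage. The members were then 19 higher and 3 lower, 15 and 4, 12 and 4, and 12 and 4.

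By family, MIKC type members were higher in 11, 10, 8 and 8 of 19 cases and lower in 2, 1, 3 and 2, and M type members were higher in 9, 9, 5 and 6 of 13 and lower in 0, 0, 0 and 1. The shares of all genes tested were 48.1, 46.3, 39.6 and 44.5% higher and 15.5, 16.5, 22.9 and 17.4% lower. Of the 41 members 11 were higher in *Cmnor* than in WT at all 4 stages, 9 of them expressed. The share of all genes tested that were higher at all 4 was 25.9%, and 34.1% of those with a group mean of 1 FPKM, so that the count is near the background. These 9 were AGAMOUS-like, AGL80, factor 8-like, AGL62 (MELO3C003801.2 and MELO3C021689.2), SOC1-like MELO3C006159.2, AGL42-like MELO3C006860.2, AGL6 and factor 23-like MELO3C030399.2, and the others were AGL29 (MELO3C002723.2) and SOC1-like MELO3C022515.2. With either scaling of the libraries MELO3C021689.2 was lost and 10 remained. At no stage were 7 members called (14.4% of all genes), and 3 were called in both directions at different stages (12.5%).

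**Figure D3:**
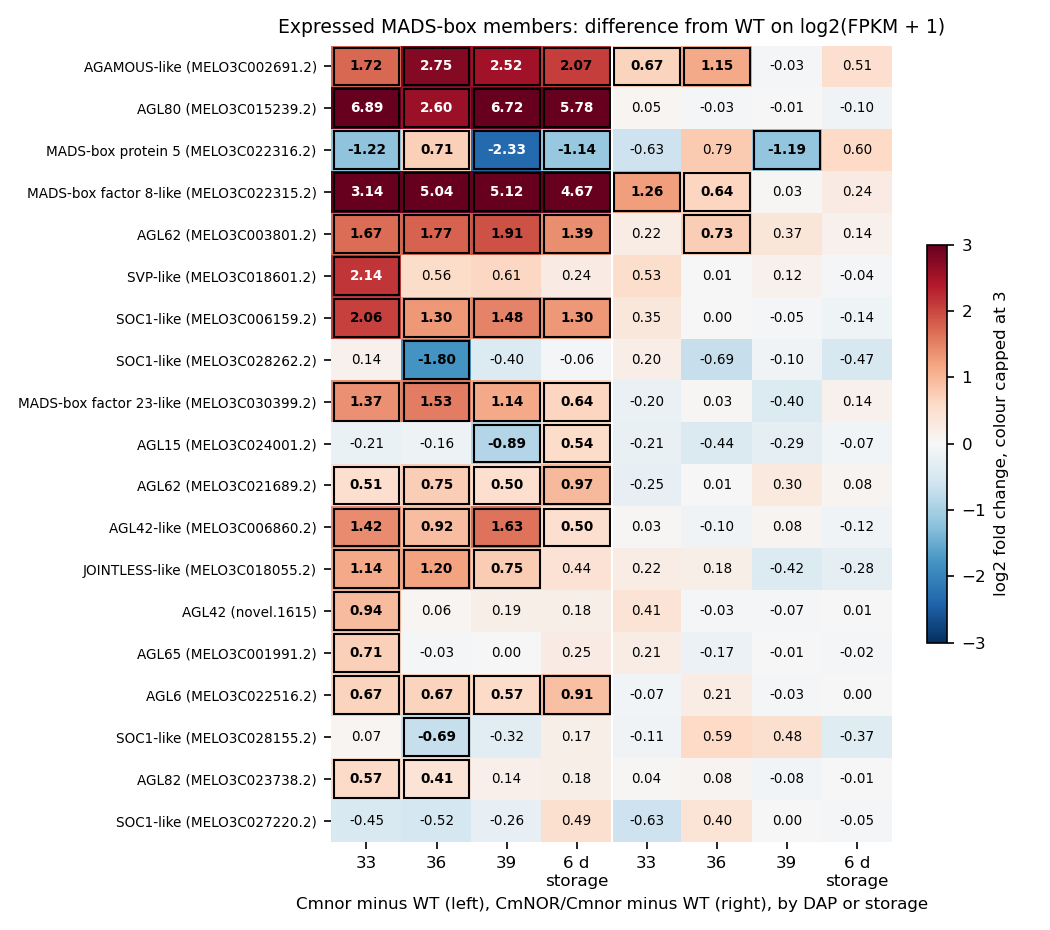
Log2 fold change on log2(FPKM + 1) of the 19 expressed members (rows, ordered by highest group mean) for Cmnor minus WT (left 4 columns) and CmNOR/Cmnor minus WT (right 4 columns) by stage. Red is higher and blue lower than WT, colour is capped at 3, and framed bold values passed an adjusted p of 0.05. Most framed values lie in the Cmnor columns.

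*CmNOR/Cmnor* differed from WT in few members. At 33 DAP 3 were higher (AGAMOUS-like, factor 8-like and SVP, MELO3C011093.2) and 1 lower (FBP24), where 8.66% of all genes were higher and 11.7% lower. At 36 DAP 3 were higher (AGAMOUS-like, factor 8-like and AGL62, MELO3C003801.2) and 1 lower (FBP24), with 6.9 and 8.96% of all genes. MADS-box protein 5 was the only member called at 39 DAP (8.2 and 14.4% of all genes) and AGL104 the only one after storage (2.81 and 8.16%), both lower, the latter not called when only the libraries compared were fitted. The count at 39 DAP was 2 whichever library was left out, and 3 with only the libraries compared. A log2 fold change of 1 or beyond was reached by 1 called member at 33, 36 and 39 DAP each and by 0 after storage in limma (2.86, 2.28, 3.41 and 1.36% of all genes).

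SVP (MELO3C011093.2) was at 0.117, 0.102 and 0.229 FPKM in *CmNOR/Cmnor* at 33 DAP against 0, 0 and 0.0292 FPKM in WT (0.18, adjusted p = 0.0191). That call was lost without the first or second WT library (adjusted p = 0.0568 and 0.0611) or the third *CmNOR/Cmnor* library (0.14), and with only the libraries compared (adjusted p = 0.065). Of the 41 members 34 were not called against WT in *CmNOR/Cmnor* at any stage, among them 15 of the 19 expressed ones. Of all genes tested 57.9% were never called in this comparison, and of those with a group mean of 1 FPKM 46.2%.

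*Cmnor* differed from *CmNOR/Cmnor* much as it did from WT, and both comparisons use the same *Cmnor* libraries. Members were higher in 22, 17, 13 and 17 cases over the stages (49.2, 47.1, 42.1 and 47.5% of all genes) and lower in 0, 4, 4 and 1 (14, 15.6, 19.6 and 15%). At 33 DAP 0 members were lower at an unadjusted p under 0.05 in limma as well. On a scale with WT at 0 and *Cmnor* at 100%, *CmNOR/Cmnor* stood at 38.9, 41.8, -1.04 and 24.6% for AGAMOUS-like over the stages, and at 40.1, 12.6, 0.588 and 5.23% for factor 8-like. The median over the members called between *Cmnor* and WT was 7.04% at 33 DAP (25 members), 11.7% at 36 DAP (24), 0.294% at 39 DAP (18) and 0.206% after storage (20). Over all genes called it was 4.23, 2.0, 1.97 and -0.82%. The members called against both homozygotes were 2 at 33 DAP, 3 at 36 DAP and 1 at 39 DAP, which was MADS-box protein 5. The share of all genes called against both was not computed, so that these counts have no background.

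**Figure D4:**
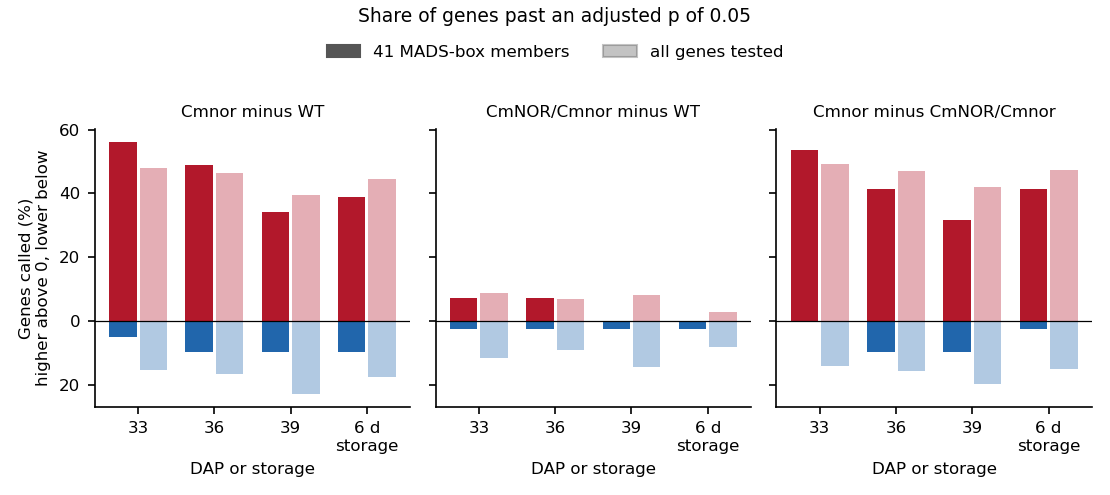
Percentage of the 41 members (dark bars) and of all genes tested (pale bars) called higher (above 0) or lower (below 0) at an adjusted p of 0.05, by stage, for 3 comparisons of genotypes. For Cmnor minus WT at 33 DAP 23 of 41 members and 48.1% of all genes were higher.

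From 33 to 39 DAP members rose and fell in different numbers in the genotypes. In WT 6 rose and 2 fell (24.7 and 12.9% of all genes), in *CmNOR/Cmnor* 7 and 4 (23.6 and 15.3%) and in *Cmnor* 3 and 8 (18.2 and 24.4%). In WT the risers were MADS-box protein 5, AGL15, AGL62 (MELO3C021689.2), AGL65, factor 23-like MELO3C003502.2 and AGL104. The 8 that fell in *Cmnor* were both SVP-like genes (MELO3C018601.2 and MELO3C007716.2), SOC1-like MELO3C006159.2 and MELO3C022515.2, AGL19, AGL12, factor 27 (MELO3C018049.2) and factor 23-like MELO3C003502.2. The change differed between *Cmnor* and WT in 9 members, 2 with the higher change in *Cmnor* (16.1% of all genes) and 7 with the lower (28.5%), and between *CmNOR/Cmnor* and WT in factor 8-like alone (8.76 and 10.3%).

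During storage 7 members rose in WT and 0 fell by limma (20 and 18.3% of all genes, with 1 lower at an unadjusted p under 0.05), 2 rose and 3 fell in *CmNOR/Cmnor* (15.2 and 20.4%) and 5 rose and 7 fell in *Cmnor* (24.1 and 23%). The risers in WT were AGAMOUS-like, MADS-box protein 5, AGL62 (MELO3C003801.2), AGL29 (MELO3C007148.2), AGL82, AGL30 (MELO3C012107.2) and AGL104. In *Cmnor* AGL80 rose by 3.27 and AGL6 by 0.35 (adjusted p = 0.0265, not called without any 1 of 4 libraries, 0.23 to 0.36, with log2(FPKM + 0.1), adjusted p = 0.154, or with only the libraries compared, adjusted p = 0.125), and factor 8-like fell by 0.84 (adjusted p = 0.000758). The storage change in *Cmnor* exceeded that in WT in 4 members (22.5% of all genes) and was below it in 8 (23.3%). No member differed in storage change between *CmNOR/Cmnor* and WT by limma (2.29 and 4.31% of all genes), with 0 higher and 5 lower at an unadjusted p under 0.05 and 1 called when only the libraries compared were fitted.

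By the transcription factor family given, 18 MADS rows lay outside the members. A search by other names of MADS-box proteins, which the rule leaves out, found 12 genes and need not cover those 18. In *Cmnor* 5, 6, 5 and 4 of the 12 genes were higher than in WT over the stages. At each stage 1 was lower, and the medians were 0.06, 0.28, 0.14 and 0.01. Those above 10 FPKM were 5. SEPALLATA 1 (MELO3C026300.2) was at 593, 654 and 612 FPKM in *Cmnor* at 33 DAP against 269.5, 268 and 269 FPKM in WT, was higher at 33 and 36 DAP (1.20 and 0.82, adjusted p = 7.69e-08 and 3.03e-05) and was not called at 39 DAP or after storage.

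The 2 genes described as AGAMOUS differed from WT in opposite directions at 3 stages. MELO3C007181.2 was at 95.0, 96.5 and 112 FPKM in *Cmnor* at 36 DAP against 1.23, 0.238 and 0.744 FPKM in WT, and was higher at all stages (3.45, 5.92, 3.45 and 4.62, adjusted p = 9.95e-12, 8.44e-17, 9.96e-12 and 1.76e-14). MELO3C019694.2 was at 122, 140.2 and 123 FPKM in *Cmnor* at 33 DAP against 342, 415 and 360.5 FPKM in WT, and was lower at 33 and 39 DAP and after storage (-1.53, -1.44 and -1.65, adjusted p = 2.2e-07, 5.5e-07 and 5.31e-08). At 36 DAP the latter was at 183, 184 and 235 FPKM in *Cmnor*, within the range of 135 to 272 FPKM in WT.

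The descriptions CAULIFLOWER A (MELO3C002050.2) and CAULIFLOWER D (MELO3C002369.2) belong to genes higher in *Cmnor* at all stages (2.78, 1.21, 3.08 and 2.38, and 4.44, 3.15, 4.67 and 2.05). In *CmNOR/Cmnor* CAULIFLOWER A was below WT at 36 DAP, at 2.03, 2.18 and 3.01 FPKM against 5.69, 9.15 and 7.18 FPKM (-1.28, adjusted p = 4.17e-05).

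Other lists around the MADS-box proteins were the SQUAMOSA promoter-binding proteins, a family that regulates MADS-box genes in flowering and contains the Colorless non-ripening gene of tomato, and the enzymes of ethylene synthesis, whose genes are bound by RIN in tomato. Of the 15 SQUAMOSA promoter-binding genes 14, 13, 11 and 12 were higher in *Cmnor* than in WT over the stages and 0, 0, 1 and 0 lower, with medians of 1.62, 1.45, 0.92 and 1.27 against 0.21, 0.17, 0.06 and 0.14 over all genes tested. Their summed level was 177 to 279 FPKM over the *Cmnor* libraries, 72.8 to 123 FPKM over *CmNOR/Cmnor* and 86.7 to 118 FPKM over WT. The 21 genes of ethylene synthesis were 9, 8, 10 and 10 higher and 8, 6, 6 and 5 lower, with medians of 0.02, 0.03, 0.15 and 0.22, while their summed level was 653 to 1605 FPKM in *Cmnor*, 7684 to 17081 FPKM in *CmNOR/Cmnor* and 9128 to 15145 FPKM in WT. A single gene of this list, MELO3C014437.2, carried most of the sum in WT and *CmNOR/Cmnor*, with group means of 7659 to 12405 FPKM and 6189 to 15588 FPKM.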

How the data were processed

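RNA-seq libraries of flesh (36 libraries, 12 groups, 3 replicates each) were analysed from the table of FPKM values that the authors deposited. The study's methods give HISAT2 as the aligner and Melon (DHL92) v3.6.1 as the genome. Cufflinks, HISAT2, StringTie and TopHat2 are listed in the submitters' processing notes, without a role for any. No source used here states the counting tool, the annotation version or the strand setting. Of 25122 table lines 1 was emptied for this work. No per-library column was left unused.

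FPKM were taken as log2(FPKM + 1) and fitted with limma 3.58.1 (R 4.3.3), letting the prior variance follow mean expression, in 1 model over the 12 groups without covariates. Genes at 0 in every library (220) were left out. Tables and plots were made with Python 3.11.15, pandas 2.3.3, NumPy 2.4.6 and matplotlib 3.10.9. The fit was run on simulated data with a small set of genes changed in a single group. Between *Cmnor* and WT most genes were called, and the simulation cannot test calls under so wide a difference. Depth was estimated from the steps between low FPKM values, with the whole span of a gene as its length. Per library 54.5 to 58.1% of these values fell within 0.1 of a whole fragment, so that the depth is approximate. Replicates correlated with r of 0.968 to 0.995 across 15407 genes.

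Members and gene lists were chosen with earlier results of these data known. Members named are the 19 expressed and, per comparison, up to 3 called members with the highest and 3 with the lowest log2 fold change (26 in all). No reference sequence was used here. Alternatives were log2(FPKM + 0.1), keeping genes with 3 libraries at 1 FPKM or more, upper-quartile scaling, scaling to the same median, the replicate number as a block, only the libraries compared, stricter thresholds and each library left out in turn. Fits without the second replicate of both mutant groups at 33 DAP and without the WT libraries at 36 DAP were added after seeing the data.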

Additional observations from a re-analysis of the deposited data

Results flagged for a closer look

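Each value here is the difference between genotypes in a change over time, tested as an interaction in limma with Benjamini-Hochberg adjustment over all genes. Between 33 and 39 DAP the change in *Cmnor* exceeded that in WT by 1.98 for factor 8-like (MELO3C022315.2, adjusted p = 1.37e-06) and by 0.80 for AGAMOUS-like (MELO3C002691.2, adjusted p = 0.0147). It was below that in WT by -1.53 for SVP-like (MELO3C018601.2, adjusted p = 0.00446), -1.12 for MADS-box protein 5 (MELO3C022316.2, adjusted p = 0.0371), -0.75 for factor 23-like MELO3C003502.2 (adjusted p = 5.8e-05), -0.71 for AGL65 (MELO3C001991.2, adjusted p = 0.00549) and -0.54 for AGL19 (MELO3C005617.2, adjusted p = 0.0196). The change in *CmNOR/Cmnor* was below that in WT for factor 8-like, by -1.23 (adjusted p = 0.00173).

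Between 36 DAP and 6 d of storage the change in *Cmnor* exceeded that in WT by 3.18 for AGL80 (MELO3C015239.2, adjusted p = 5.96e-16), and by 1.74, 1.01 and 0.86 for the SOC1-like rows MELO3C028262.2, MELO3C027220.2 and MELO3C028155.2 (adjusted p = 0.0193, 0.0424 and 0.0421). It was below that in WT by -1.85 for MADS-box protein 5 (adjusted p = 0.000849), -0.89 for factor 23-like MELO3C030399.2 (adjusted p = 0.00106), -0.68 for AGAMOUS-like (adjusted p = 0.0376), -0.49 for MELO3C003502.2 (adjusted p = 0.0042) and -0.34 for AGL104 (MELO3C032615.2, adjusted p = 0.00682).

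Some of these values depend on single libraries. That of AGAMOUS-like was -0.33 (adjusted p = 0.188) without the second WT library at 36 DAP. That of MELO3C027220.2 was 0.65 (adjusted p = 0.177) without the first stored *Cmnor* library, and that of MELO3C028155.2 was 0.65 (adjusted p = 0.138) without the second WT library at 36 DAP. The value of MELO3C028262.2 was 1.55 to 1.56 and not called without any 1 of 3 libraries. Between 33 and 39 DAP the values of SVP-like and AGL19 were -0.87 and -0.24 without the second *Cmnor* replicate at 33 DAP (adjusted p = 0.00484 and 0.0318).

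Other calls among these were lost under another setting. With log2(FPKM + 0.1) the storage value of MELO3C030399.2 was -0.76 (adjusted p = 0.452), that of AGL104 had an adjusted p of 0.0517, and that of MELO3C027220.2 was 3.07 (adjusted p = 0.0593). When only the libraries compared were fitted, the adjusted p was 0.064 for SVP-like and 0.144 for AGL19 from 33 to 39 DAP, and for storage 0.154 for AGAMOUS-like, 0.0675 for AGL104, 0.0514 for MELO3C027220.2 and 0.0581 for MELO3C028155.2. With upper-quartile scaling and with the same median it was 0.0668 and 0.0803 for MADS-box protein 5 from 33 to 39 DAP, and for storage 0.0586 and 0.064 for MELO3C027220.2 and 0.13 and 0.157 for MELO3C028155.2.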

How the results depend on the processing

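Numbers are MADS-box members called, as reported and then under the alternative. A fold threshold of 1 on the log2 scale left 10 of 25, 8 of 24, 8 of 18 and 6 of 20 between *Cmnor* and WT over the stages, 8 of 22, 10 of 21, 9 of 17 and 6 of 18 between *Cmnor* and *CmNOR/Cmnor*, and 1 of 4, 1 of 4 and 0 of 1 between *CmNOR/Cmnor* and WT at 33 and 36 DAP and after storage. It left 2 of 8, 3 of 11 and 1 of 11 from 33 to 39 DAP in WT, *CmNOR/Cmnor* and *Cmnor*, 0 of 7, 0 of 5 and 2 of 12 during storage, and 3 of 9 and 4 of 12 of the differences in change between *Cmnor* and WT. An adjusted p of 0.01 left 13 of 20 between *Cmnor* and WT after storage, 2 and 1 of 4 between *CmNOR/Cmnor* and WT at 33 and 36 DAP, 5 of 8, 4 of 11 and 6 of 11 from 33 to 39 DAP, 4 of 7, 3 of 5 and 7 of 12 during storage, and 5 of 9 and 7 of 12 of the differences in change. The filter of 1 FPKM in 3 libraries, which only 18 members passed, gave 14, 14 and 11 between *Cmnor* and WT at 33 and 36 DAP and after storage, 13 between *Cmnor* and *CmNOR/Cmnor* at 33 DAP, 2, 2 and 0 between *CmNOR/Cmnor* and WT at 33 and 39 DAP and after storage, 7 and 4 from 33 to 39 DAP in *CmNOR/Cmnor* and *Cmnor*, 7 during storage in *Cmnor*, and 2 for the difference in ripening change between *CmNOR/Cmnor* and WT. With only the libraries compared these were 2 and 3 between *CmNOR/Cmnor* and WT at 36 and 39 DAP, 5 from 33 to 39 DAP in *Cmnor*, 2 for the ripening difference of *CmNOR/Cmnor*, and 7 and 1 for the storage differences of *Cmnor* and *CmNOR/Cmnor*. Counts of 1 became 2 with log2(FPKM + 0.1) (*CmNOR/Cmnor* against WT at 39 DAP and its ripening difference), 2 and 3 with either scaling (after storage and the ripening difference), and 2 without the WT libraries at 36 DAP (39 DAP, storage and the ripening difference).

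Leaving out 1 library at a time gave 22 to 25, 19 to 23, 15 to 19 and 16 to 19 members between *Cmnor* and WT, 3 to 4, 3 to 5, 2 to 2 and 1 to 2 between *CmNOR/Cmnor* and WT, and 19 to 23, 18 to 21, 14 to 18 and 14 to 20 between *Cmnor* and *CmNOR/Cmnor*. The ranges were 6 to 8, 6 to 11 and 9 to 12 from 33 to 39 DAP, 4 to 7, 2 to 4 and 8 to 14 during storage, 8 to 13 and 1 to 2 for the ripening differences and 8 to 14 and 0 to 2 for the storage differences. Same-numbered libraries of different groups did not deviate together on average (mean correlation 0.008, range -0.41 to 0.72). A mean over all pairs of groups cannot exclude pairing within a stage or between single groups. A replicate block gave 25, 24, 18 and 20 members between *Cmnor* and WT and changed 0 of 198 calls of named members. Of these 198 calls 13 were lost with log2(FPKM + 0.1), 22 with upper-quartile scaling, 24 with the same median and 37 with only the libraries compared. Each call was also refitted without each library of its groups in turn. It was lost in 164 of these refits and held in 1126. None reversed under these alternatives, and the causes were not tested. Scaling to the same median moved the median log2 fold change of genes above 1 FPKM between *Cmnor* and WT from 0.52, 0.49, 0.31 and 0.45 to -0.04, -0.07, -0.04 and -0.12. Levels under about 0.1 FPKM rest on a few fragments, and in the SOC1-like rows of 150 bp levels near 1 FPKM do so too.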
